A study of Rattus norvegicus with 22 samples.

Results

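The mRNA levels of SCX, MKX, ERG1 and TNMD, 3 transcription factors of the tendon lineage and a surface protein of tendon cells, were followed in the calcaneal tendon (CT) of rats after an injury to the gastrocnemius (GA) muscle. These 4 genes were chosen by name from the 22 target genes of a qRT-PCR panel, with earlier results of these data already known. The animals were 22 male Wistar rats of 4 months, in a control group with no muscle injury (C, n = 5) and in groups taken 3 days (3D, n = 5), 14 days (14D, n = 6) and 28 days (28D, n = 6) after a freezing lesion (cryolesion) of the GA belly. The lesion was made in the muscle, not in the tendon, and the sources used here state no sham operation for C. Each rat gave 1 sample of whole CT. The assay named ERG1 is paired with rat Egr1 in the deposited ΔCt table, so its values are those of Egr1, and the name ERG1 is kept from the paper.

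SCX (scleraxis) is a basic helix-loop-helix transcription factor that marks tendon progenitors, and mice without it form defective force-transmitting tendons. MKX (mohawk) is a homeobox factor that in the mouse is needed for normal amounts of type I collagen in tendon. Egr1, the gene read by the ERG1 assay, encodes a zinc finger factor that is switched on within a short time of growth factor or mechanical signals, and in the mouse it takes part in tendon formation and repair. TNMD (tenomodulin) is a membrane glycoprotein of differentiated tenocytes, and in the mouse its expression in tendon depends on Scx.

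The start region of Egr1 is shown because this gene varied most between animals within C and 28D among the 4 genes, and because its known induction acts through serum response elements, which hold a CArG box. The 300 bases come from RefSeq on the rat GRCr8 assembly, chr18:26736828-26737127, plus strand, and end 50 bases after the annotated start of the gene. Capitals mark the 2 matches to the CArG box, whose first bases lie 105 and 83 bases before the start.
Egr1: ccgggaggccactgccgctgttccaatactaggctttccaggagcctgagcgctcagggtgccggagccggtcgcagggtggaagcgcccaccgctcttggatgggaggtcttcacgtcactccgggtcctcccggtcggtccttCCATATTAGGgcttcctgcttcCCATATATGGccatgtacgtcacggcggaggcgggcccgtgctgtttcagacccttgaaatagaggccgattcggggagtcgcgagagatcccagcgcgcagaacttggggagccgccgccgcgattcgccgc
A CArG box was present in 548 of 33469 rat promoters of this length, 1.64%. This motif was looked for after the sequence had been read, and a link between it and the spread of ERG1 was not tested. The entries for Mkx (2 starts on chromosome 17) and Tnmd (chromosome X) held none, and no entry was matched to Scx. The E-box CANNTG, the kind of motif bound by SCX, and GCGNGGGCG, bound by EGR1, were searched on both strands and had 0 matches in all 4 entries, while 72.1% and 4.98% of all promoters held them. These are letter matches in 1 window per start and say nothing of binding.

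The cycle threshold (Ct) is the cycle at which the fluorescence of a well crosses a fixed line, so the more mRNA in a well, the earlier the Ct. All 88 values of the 4 genes were measured, and none was blank or filled in, while 24 of the 484 values of the whole panel were. The Ct lay between 27.2 and 33.7 for SCX, 26.5 and 36.6 for MKX, 26.5 and 34.7 for ERG1, and 21.8 and 30.8 for TNMD, and 1 well, MKX in replicate 2 of 3D, was later than 35. TNMD, SCX and MKX, taken as tenocyte markers together with COL1A1, were thus detected in every sample. For COL1A1 a measured value was at hand in 4 animals of C, 4 of 3D and all of the later groups. The panel holds no marker gene of muscle, leukocytes, fat or endothelium.

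The reference gene RPLP0, a ribosomal protein, was itself uneven. Its Ct, as used for the 4 genes, was 27.3 ± 1.91 for C, 28.5 ± 2.29 for 3D, 27.1 ± 1.15 for 14D and 28.8 ± 1.28 for 28D (mean ± SD over 5, 5, 6 and 6 rats). From 14D to 28D it came later by 1.72 cycles (two-sided exact permutation p = 0.0303). The latest values were 32.3 in replicate 2 of 3D and 30.6 in replicate 4 of C. In replicate 5 of 3D the 4 genes were normalized with an RPLP0 Ct of 28.5, which is the mean of the other 3D animals, while 9 other genes of the same animal were normalized with 27.1. This raises all 4 genes of that animal by 1.34 on the log2 scale, and the calls and spreads that change with it are given both ways.

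Expression is given below on a log2 scale, as ΔCt (Ct minus the RPLP0 Ct) with its sign reversed and the mean of C set to 0, so that a step of 1 is a 2-fold step. Differences come by limma, fitted to all 22 genes and 4 groups, with p-values adjusted over 132 tests (22 genes by 6 pairs of groups) and a threshold of 0.05. Two-sided exact permutation tests of the animals are unadjusted. In whole tendon, a lower level can mean fewer cells that carry the mRNA or less of it per cell, and these cannot be told apart.

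SCX had its highest mean in 28D, and none of its 6 differences between groups passed. The 5 animals of C stood at 0.43, -0.08, 0.21, -0.44 and -0.11 log2 units, and those of 3D at 0.24, 0.01, -1.68, 0.40 and 1.07. In 14D the lowest, median and highest were -0.17, 0.03 and 0.57, and in 28D -0.08, 0.96 and 1.51. Thus C and 14D were narrow, 3D spread on both sides of them through replicates 3 and 5, and 4 of the 6 animals of 28D were above all of C while the groups overlapped. The mean of 28D was 1.80 times that of C (difference 0.85 log2 units with an SE of 0.41, 95% interval -0.00 to 1.70, adjusted p = 0.239 by limma, exact permutation p = 0.0325). Against 14D it was 1.67 times as high (difference 0.74 log2 units with an SE of 0.39, adjusted p = 0.275 by limma, exact permutation p = 0.0346), and against 3D 1.79 times (difference 0.84 log2 units with an SE of 0.41, adjusted p = 0.239 by limma, exact permutation p = 0.123). The means of C, 3D and 14D lay within 0.11 of each other, and none of the neighbours in the order 28D, 14D, 3D, C differed past the threshold. The 95% interval of 3D minus C ran from -0.88 to 0.90, which does not show that they were alike. With the other RPLP0 Ct of replicate 5 of 3D, that animal stood at -0.27, the highest of 3D was 0.40, below the top of C, and the difference of 3D from C turned from 0.01 to -0.26.

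MKX was lowest in 3D and rose from there to both later groups, with the largest of the 24 estimated differences. In C the animals stood at -0.65, -0.31, -0.25, 0.57 and 0.65, and in 3D at -1.65, -3.43, -0.89, -0.08 and -0.11. In 14D the lowest, median and highest were -0.39, 0.49 and 0.67, and in 28D 0.36, 0.73 and 1.17. Replicate 2 of 3D was far below every other animal, 3 of the 5 animals of 3D were below all of C, and the whole of 28D lay above the whole of 3D. MKX rose 3.96-fold from 3D to 28D (difference 1.99 log2 units with an SE of 0.47, 95% interval 1.01 to 2.97, adjusted p = 0.0145 by limma, exact permutation p = 0.00216, which is the lowest for 6 rats against 5). It had risen 2.83-fold from 3D to 14D (difference 1.50 log2 units with an SE of 0.47, 95% interval 0.52 to 2.48, adjusted p = 0.0403 by limma, exact permutation p = 0.0173), with 4 of 6 animals of 14D above all of 3D. The lower mean of 3D against C did not pass as deposited (difference -1.23 log2 units with an SE of 0.50, adjusted p = 0.129 by limma, exact permutation p = 0.0873). With the other RPLP0 Ct of replicate 5 of 3D it passed, at -1.50 (adjusted p = 0.0319 by limma).

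The rise of MKX to 28D stayed past the threshold in each of the 22 fits that left out 1 rat, with log2 differences from 1.44 to 2.27 and adjusted p by limma up to 0.0438. It missed the threshold with the Ct alone (1.61, adjusted p = 0.453 by limma), with the pair fitted by itself (adjusted p = 0.0988 by limma) and with adjusted exact permutation p (0.0786). The rise to 14D was less secure. It was 0.95 without replicate 2 of 3D (adjusted p = 0.120 by limma) and missed the threshold in 12 of those 22 fits. In 28D the mean of MKX was 1.69 times that of C (difference 0.75 log2 units with an SE of 0.47, adjusted p = 0.359 by limma, exact permutation p = 0.0325), with 3 of 6 animals above all of C. In the order 28D, 14D, C, 3D no neighbours differed past the threshold.

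ERG1 ranged widely within C, 3D and 28D and passed in no pair as deposited. The animals of C stood at 0.62, 0.04, -1.56, 1.51 and -0.61, and those of 3D at -1.60, -2.08, -1.92, -0.26 and 1.50. In 14D the lowest, median and highest were -0.99, -0.55 and 0.26, and in 28D -1.33, 1.36 and 2.29. Group 3D held 3 animals below all of C and 1 close to the top of C, 28D held 3 animals above all of C together with 1 low animal, replicate 4, and 14D was narrow. The mean of 28D was 3.43 times that of 3D (difference 1.78 log2 units with an SE of 0.68, 95% interval 0.37 to 3.18, adjusted p = 0.102 by limma, exact permutation p = 0.0736). The high animal of 3D is replicate 5. With its other RPLP0 Ct it stood at 0.16, the SD of 3D was 1.02 in place of 1.51, and the difference passed, at 2.05 (adjusted p = 0.0298 by limma). It also passed without that animal (2.37, adjusted p = 0.0244 by limma) and without replicate 4 of 28D (2.23, adjusted p = 0.0284 by limma). Against 14D the mean of 28D was 2.50 times as high (difference 1.32 log2 units with an SE of 0.65, adjusted p = 0.239 by limma, exact permutation p = 0.0606), and against C 1.87 times (difference 0.91 log2 units with an SE of 0.68, adjusted p = 0.452 by limma, exact permutation p = 0.273). The order of the means was 28D, C, 14D, 3D, with no neighbours apart past the threshold.

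TNMD was highest in 28D, where it also varied least. The animals of C stood at -0.87, -0.22, 0.24, 0.78 and 0.08, and those of 3D at -0.74, -2.30, -0.27, 0.27 and -0.27. In 14D the lowest, median and highest were -0.91, -0.22 and 1.02, and in 28D 0.49, 0.78 and 1.39. All of 28D were above all of 3D, whose replicate 2 was again the lowest animal, and 3 of 6 animals of 28D were above all of C. The SD was 0.36 in 28D, 0.77 in 14D, 0.98 in 3D and 0.61 in C. The rise from 3D to 28D was 1.53 log2 units (95% interval 0.60 to 2.45, adjusted p = 0.0291 by limma, exact permutation p = 0.00216). It missed the threshold without replicate 1 of 3D (1.51, adjusted p = 0.0970 by limma), without replicate 2 of 3D (1.12, adjusted p = 0.0876 by limma) or without replicate 5 of 28D (1.42, adjusted p = 0.0685 by limma). The means of 28D over C (0.86, SE 0.45, adjusted p = 0.275 by limma, exact permutation p = 0.0130) and over 14D (1.01, SE 0.43, adjusted p = 0.155 by limma, exact permutation p = 0.0195) did not pass. Against C the mean of 3D stood at -0.66 (SE 0.47, adjusted p = 0.426 by limma, exact permutation p = 0.270), or -0.93 with the other RPLP0 Ct of replicate 5 (adjusted p = 0.211 by limma), and in 14D -0.15 (SE 0.45, adjusted p = 0.902 by limma, exact permutation p = 0.712). No neighbours in the order 28D, C, 14D, 3D differed past the threshold.

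**Figure D1:**
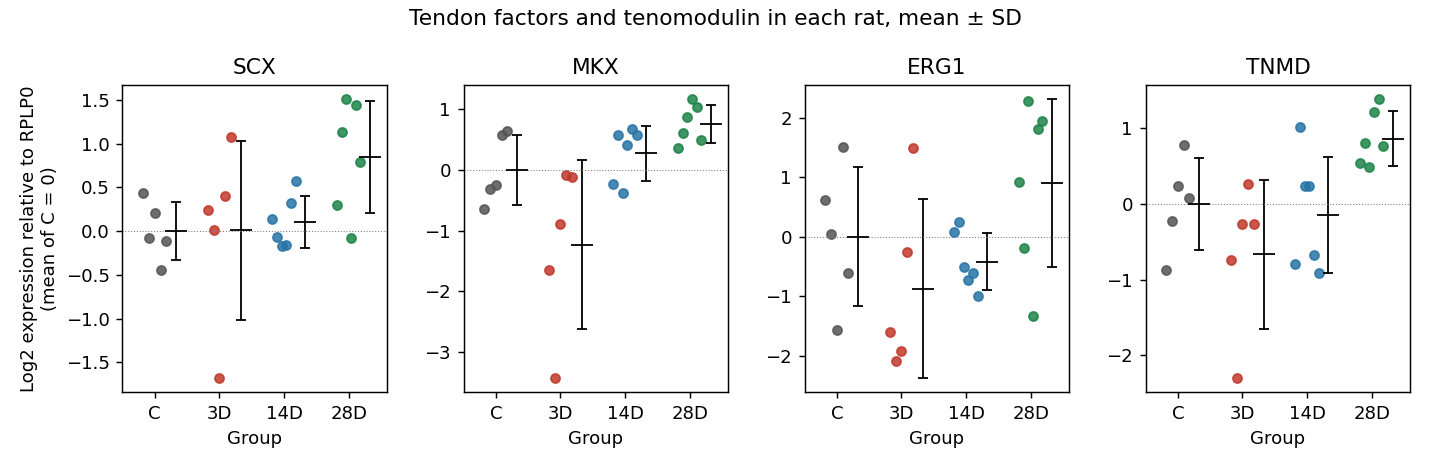
Log2 expression relative to RPLP0 (mean of C = 0, vertical axis) of SCX, MKX, ERG1 and TNMD in each rat of C, 3D, 14D and 28D (horizontal axis). Points are animals and bars are the mean ± SD of a group, and the vertical scale differs between panels. The 6 animals of 28D lie above the 5 of 3D in MKX and TNMD, and replicate 2 of 3D is the lowest point in both.

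Seen over the 4 genes, 3 of 24 tests passed, against 10.6% of all 132 tests of the panel, and all 3 were differences from 3D. From 3D to 28D the means of all 4 genes were higher, and 2 of the 4, MKX and TNMD, passed, where 31.8% of the 22 target genes passed as higher. The same 2 did not overlap between the groups, against 27.3% of the target genes. From 3D to 14D only MKX passed, where 27.3% of the target genes were called higher. In 28D against C, in 14D against C and in 28D against 14D, 0 of the 4 passed, and the background was 0.0% in both directions by limma. An unadjusted exact permutation p under 0.05 was found for 3 of the 4 in 28D against C, where 27.3% of the target genes had one, for 0 of the 4 in 14D against C (9.09%) and for 2 of the 4 in 28D against 14D (13.6%). In 3D against C 0 of the 4 passed, while 4.55% of the target genes were called lower by limma, and 0 of the 4 had an unadjusted exact permutation p under 0.05, against 13.6% of the target genes. The groups overlapped in all 4 genes in 3D against C and in 28D against C, where 9.09% of the target genes did not overlap in either pair.

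The 3 calls held with the other RPLP0 Ct of replicate 5 of 3D. From 3D to 28D MKX then differed by 2.25 (adjusted p = 0.00241 by limma) and TNMD by 1.79 (adjusted p = 0.0107 by limma), and from 3D to 14D MKX differed by 1.77 (adjusted p = 0.0107 by limma). SCX from 3D to 28D was then at 1.11 and did not pass (adjusted p = 0.0598 by limma).

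The size of the shifts can be set beside the panel. From C to 28D the median log2 difference was 0.86 over the 4 genes and 0.39 over all 22 targets, and from 3D to 28D it was 1.65 and 1.07. From C to 3D the medians were -0.77 and -0.77. Of 7 tendon matrix genes, 3 rose both from 3D to 14D and from 3D to 28D, namely COL1A1, the main chain of type I collagen, FN, the adhesive matrix protein fibronectin, and DCN, the collagen-binding proteoglycan decorin. COL1A1 was also the 1 matrix gene that passed in 3D against C, where it was lower, and the median of the 7 in 28D against C was -0.36. Of TGF-b1 and its signal carriers SMAD-2 and SMAD-3, 0 of 3 passed in any pair, and their medians were 0.39 in 28D against C and 1.03 in 28D against 3D.

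The sign of several of these differences changed with another reference or with none. Each gene was set against the mean of all other target genes of the panel, the rest of the 4 genes included. On this reference 28D minus 3D remained past the threshold for MKX at 1.21 (adjusted p = 0.0211 by limma). It was 0.73 for TNMD (adjusted p = 0.236 by limma), 1.00 for ERG1 (adjusted p = 0.409 by limma) and 0.02 for SCX (adjusted p = 0.985 by limma). The Ct alone has no reference and also carries any difference in cDNA input. With it 28D minus C turned to -0.72 for SCX, -0.82 for MKX, -0.67 for ERG1 and -0.71 for TNMD. This turn equals the later RPLP0 Ct of 28D, 1.57 cycles against C (exact permutation p = 0.134). Against the other target genes of the panel, the rest of the 4 included, 28D minus C stayed above 0 for all 4 genes. It was 0.57, 0.47, 0.62 and 0.58 in the same order, and none passed.

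**Figure D2:**
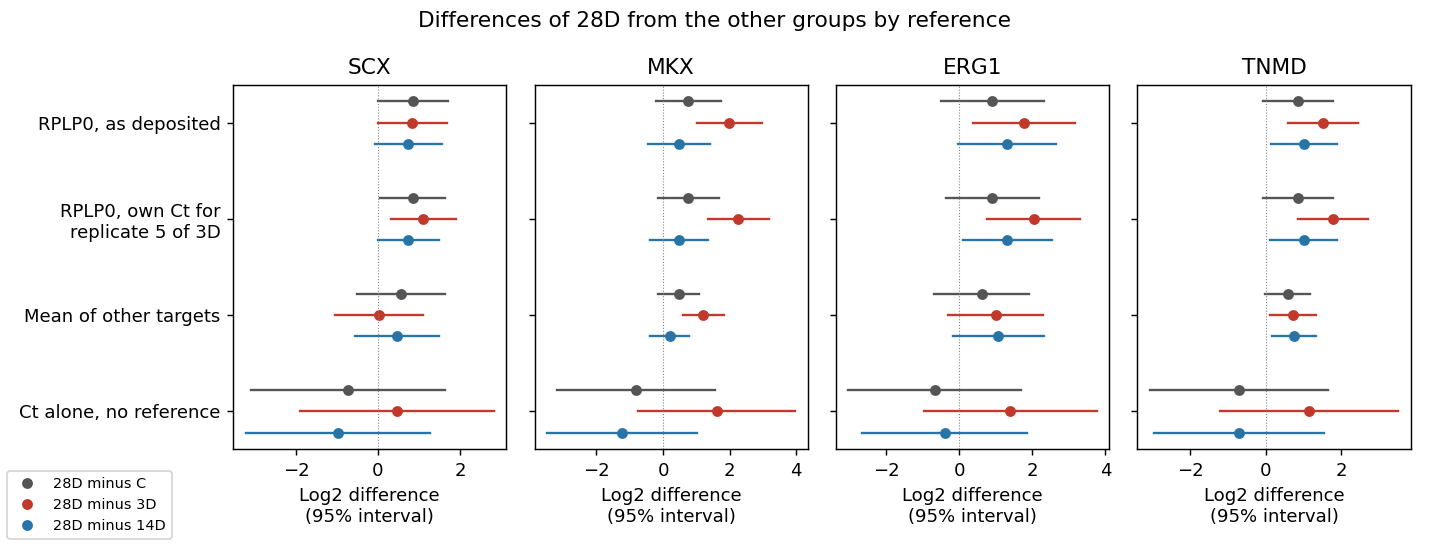
Log2 differences of 28D from C, 3D and 14D (horizontal axis, points with 95% intervals by limma) for the 4 genes under 4 references (vertical axis). The differences from 3D stay above 0 under every reference, that of SCX down to 0.02, while those from C and 14D turn below 0 with the Ct alone.

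To set the genes against each other with no reference gene, the Ct of a gene was subtracted from that of another in the same animal, which cancels RPLP0 and any difference in cDNA input. Each cycle is read as a 2-fold step, and only shifts of a ratio between groups are compared, since assays differ in efficiency. Of the 36 tests of the 6 ratios among the 4 genes in 6 pairs of groups, 0 had an exact permutation p under 0.05, against 17.0% over all gene pairs and group pairs of the panel. The lowest p was for SCX over MKX. This log2 ratio was 0.61, -0.25, -0.02, -1.48 and -1.23 in C and 1.41, 2.97, -1.27, 0.00 and 0.71 in 3D. In 14D its lowest, median and highest were -1.12, -0.65 and -0.11, and in 28D -1.72, -0.12 and 0.17. In 4 of 5 animals of 3D the ratio was above all 6 of 14D, and replicate 3 of 3D was below all of them. The mean of 14D minus that of 3D was -1.40 (exact permutation p = 0.0519). This difference was -0.85 without replicate 2 of 3D at the one end and -1.91 without replicate 3 of 3D at the other.

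The other 5 ratios moved less against their spread. MKX over TNMD was 0.99 higher in 14D than in 3D (95% interval 0.09 to 1.89 by limma, exact permutation p = 0.0628). In 28D it was 0.46 higher than in 3D (95% interval -0.44 to 1.36 by limma, exact permutation p = 0.0909). This ratio was tight in 28D, at -5.07 to -4.33. SCX over TNMD in 28D differed from C by -0.01 (95% interval -1.26 to 1.23 by limma). ERG1 over TNMD in 28D differed from C by 0.04 (95% interval -1.39 to 1.48 by limma). The last 2 of these intervals span more than a 2-fold difference on either side, so these ratios are not shown to be equal.

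**Figure D3:**
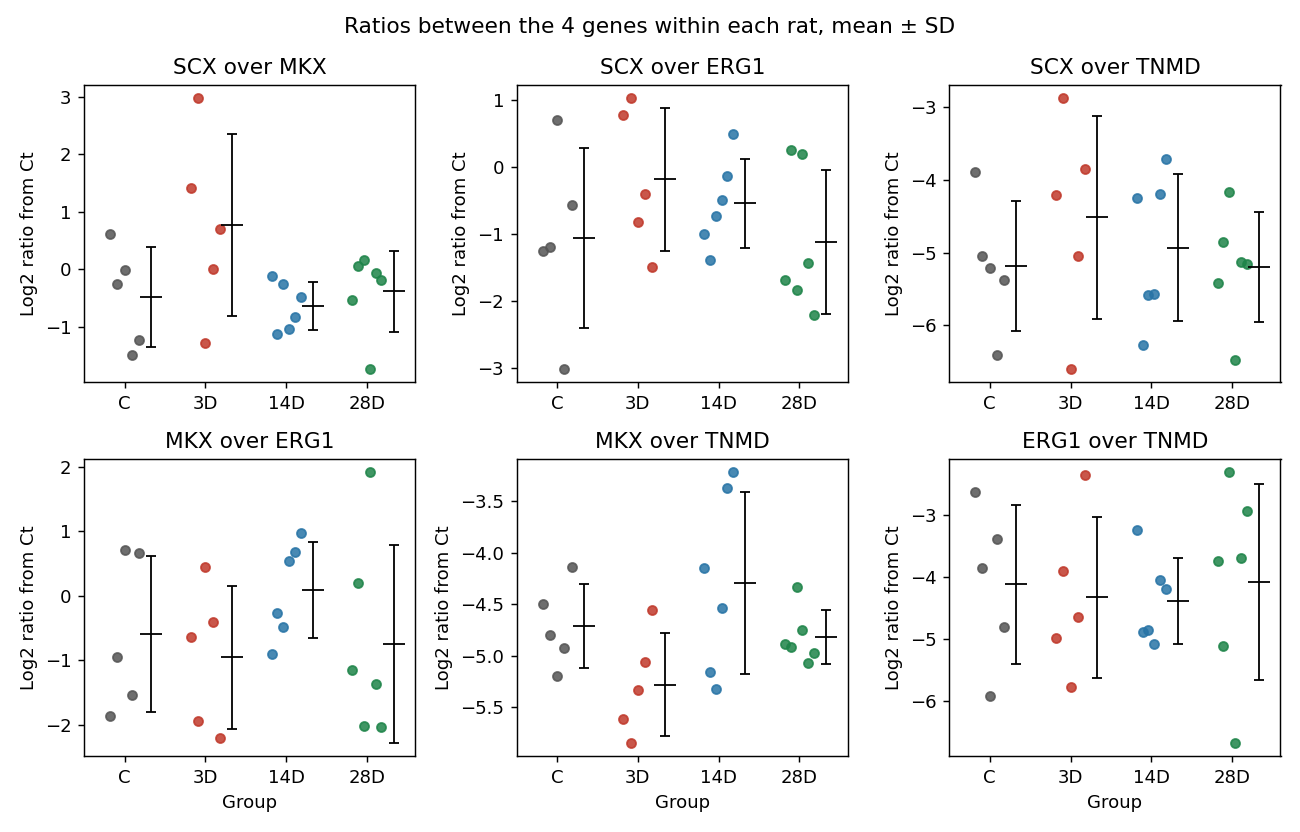
Log2 ratios between the 4 genes from their Ct in the same rat (vertical axis, no reference gene) by group (horizontal axis), with points for animals and bars for the mean ± SD. The groups overlap in every panel, and SCX over MKX in 3D spreads from -1.27 to 2.97.

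The ratios of the 4 genes to COL1A1 set the groups farther apart. Relative to RPLP0, COL1A1 differed by -2.74 in 3D against C, by 3.39 in 14D against 3D and by -1.40 in 28D against 14D. Its Ct was measured in 4 animals of C, 4 of 3D and all of the later groups. In 3D against C all 4 genes were higher relative to COL1A1, and 4 of 4 animals lay above the 4 of C in each. The log2 ratio shifts were 2.73 for SCX, 1.23 for MKX, 2.17 for ERG1 and 1.84 for TNMD (exact permutation p = 0.0286 each, the smallest for 4 against 4), where 15.6% of gene pairs in the panel had a p under 0.05. In 14D against 3D the shifts were -3.38, -1.47, -2.87 and -2.45 in the same order, with all 6 animals of 14D below the 4 of 3D (exact permutation p = 0.00476 each, the smallest for 6 against 4). In this pair 30.3% of the gene pairs had a p under 0.05. These shares, here and below, are over all gene pairs of the panel. The share for the other target genes over COL1A1 was not taken, and COL1A1 itself passed by limma in both of these pairs. The shifts are therefore not shown to be particular to the 4 genes.

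SCX over COL1A1 shows the pattern by animal. It was -1.25, -1.97, -2.38 and -3.08 in C, and 0.95, 1.37, -0.05 and -0.06 in 3D. In 14D the lowest, median and highest were -3.80, -2.81 and -2.25, and in 28D -3.94, -0.23 and 0.82. The 3D animals thus formed the upper group with 5 of the 6 of 28D, while C, 14D and replicate 4 of 28D formed the lower one. TNMD over COL1A1 followed the same order, at 2.63, 3.08, 2.83 and 2.29 in C and 5.16, 4.25, 5.00 and 3.79 in 3D. Its lowest, median and highest were 0.90, 2.24 and 3.28 in 14D, and 2.53, 4.85 and 5.19 in 28D. The groups C and 3D did not overlap, nor did 3D and 14D, and replicate 4 of 28D was within the range of 14D.

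In 28D against 14D the ratios to COL1A1 were higher again, by 2.14 for SCX (exact permutation p = 0.0152), 1.88 for MKX (exact permutation p = 0.0108), 2.72 for ERG1 (exact permutation p = 0.0346) and 2.41 for TNMD (exact permutation p = 0.00649). In each gene 5 of the 6 animals of 28D were above all of 14D, and the background was 13.4% of gene pairs. Without replicate 4 of 28D the shifts were 2.79, 2.26, 3.63 and 2.80. In 28D against C the ratio was higher for MKX by 1.64 (exact permutation p = 0.0333) and for TNMD by 1.80 (exact permutation p = 0.0381), with 12.6% of gene pairs under 0.05. It was also higher for SCX by 1.48 (exact permutation p = 0.133) and for ERG1 by 2.03 (exact permutation p = 0.171), with a p above 0.05. In 14D against C and in 28D against 3D no ratio to COL1A1 had a p under 0.05, with 14.3% and 16.0% of gene pairs there. In all, 14 of 24 tests did. The 4 ratios share the same COL1A1 wells and are not independent, and over the 1386 tests of all gene and group pairs the smallest adjusted exact p was 0.194, so none passed after adjustment.

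**Figure D4:**
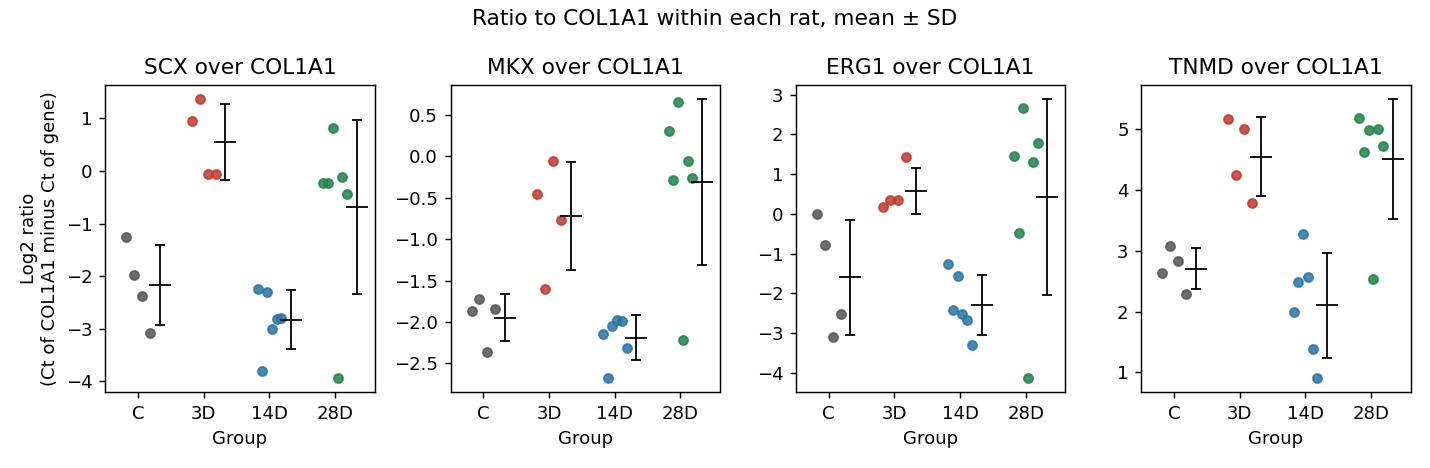
Log2 ratio of each of the 4 genes to COL1A1 from their Ct in the same rat (vertical axis) by group (horizontal axis), with points for animals and bars for the mean ± SD, and vertical scales that differ between panels. The ratios are high in 3D, low in 14D and high again in 5 of 6 animals of 28D, with replicate 4 of 28D apart from its group.

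Whether the 4 genes varied together from animal to animal was examined over the 22 rats after the mean of each group had been subtracted. MKX and TNMD varied together relative to RPLP0 (r = 0.70, permutation p = 0.00507, adjusted p = 0.0228 over the 231 gene pairs of the panel; rho = 0.58, permutation p = 0.0128, adjusted p = 0.0509). They were the 1 pair of the 6 that passed by r, where 26.8% of gene pairs did. Without the 2 animals farthest from the median of MKX, replicates 1 and 2 of 3D, r was 0.40. Without replicate 2 of 3D alone it was 0.46. That animal had the latest RPLP0 Ct and the latest MKX Ct, and the relation was weaker without it. Within groups r was 0.76 in C, 0.97 in 3D, 0.02 in 14D and 0.71 in 28D.

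For SCX and ERG1 r was 0.48 (permutation p = 0.0828, adjusted p = 0.182; rho = 0.33, permutation p = 0.191, adjusted p = 0.362), and without replicates 3 of 3D and 28D it was 0.40. It was lower with the other RPLP0 Ct of replicate 5 of 3D, at 0.31, and without that animal, at 0.33. Within groups the r of SCX and ERG1 was -0.42 in C, 0.71 in 3D, -0.43 in 14D and 0.70 in 28D. The other pairs had r of 0.33 for MKX and ERG1 (rho = 0.16), 0.22 for ERG1 and TNMD (rho = 0.23), 0.08 for SCX and MKX (rho = 0.04) and -0.19 for SCX and TNMD (rho = -0.23), with permutation p from 0.261 to 0.856 for r and from 0.307 to 0.876 for rho. With the other RPLP0 Ct of replicate 5 of 3D their r was 0.16, 0.08, -0.11 and -0.28 in the same order, and that of MKX and TNMD was 0.68. Relative to the mean of the other 18 targets, MKX and TNMD had r = 0.07 (permutation p = 0.791) and rho = 0.03 (permutation p = 0.895). SCX and ERG1 had r = 0.47 (unadjusted permutation p = 0.0333) and rho = 0.42 (unadjusted permutation p = 0.0672) there, with r from 0.22 in C to 0.73 in 28D within groups. With the p of r adjusted over the 6 pairs, 0 passed on this reference. On the Ct alone all 6 pairs had r between 0.77 and 0.96, as did most of the panel, where 86.6% of gene pairs passed and the median r was 0.86. Over the 22 rats, as a description, the Ct followed that of RPLP0 closely in SCX (r = 0.93, rho = 0.82), MKX (r = 0.95, rho = 0.84) and TNMD (r = 0.93, rho = 0.86) and less in rank for ERG1 (r = 0.74, rho = 0.40).

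**Figure D5:**
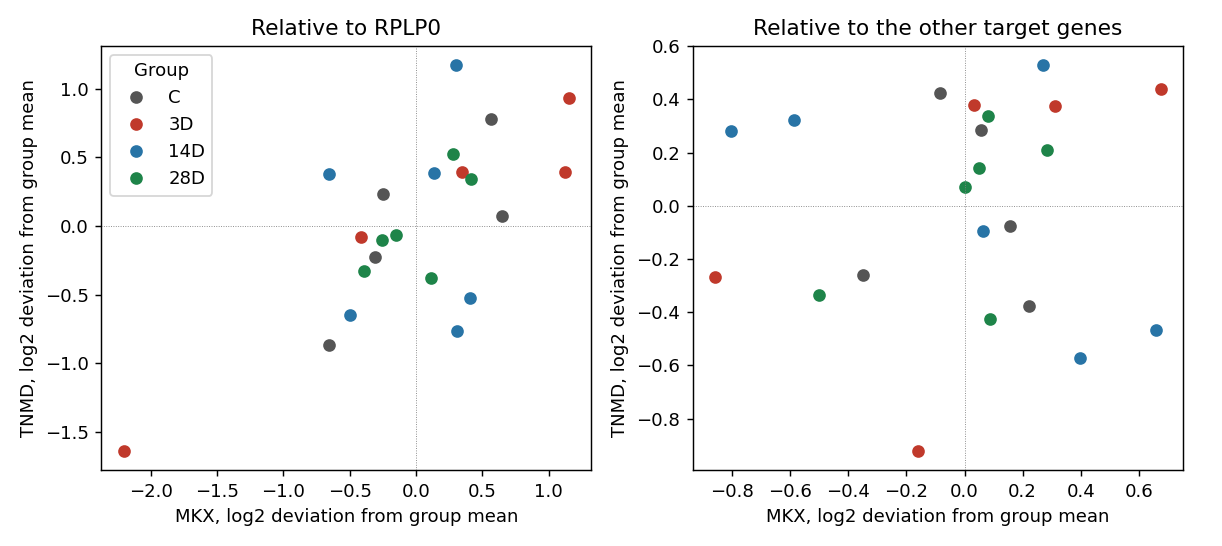
Deviation of TNMD (vertical axis) against that of MKX (horizontal axis) from the group mean in log2 units, relative to RPLP0 (left) and to the mean of all other target genes (right), with 1 point per rat coloured by group. The left panel has r = 0.70 with replicate 2 of 3D at the lower left. The r of 0.07 in the text is relative to the 18 targets outside the 4 genes, which is not the reference of the right panel.

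The target genes most like each of the 4, by Pearson's r over all animals relative to RPLP0, are given as a description, since all values of an animal share its RPLP0 Ct. They were ERG1 (r = 0.60, rho = 0.48, n = 22) and TNC (r = 0.56, rho = 0.35, n = 22), the matrix protein tenascin-C, for SCX. For MKX they were TIMP-2 (r = 0.92, rho = 0.80, n = 21), an inhibitor of matrix metalloproteinases, and TGF-b1 (r = 0.90, rho = 0.79, n = 20), a growth factor that stimulates matrix synthesis. For ERG1 they were TNC (r = 0.76, rho = 0.77, n = 22) and ADAMTS-4 (r = 0.63, rho = 0.62, n = 21), an enzyme that cleaves proteoglycans. For TNMD they were DCN (r = 0.81, rho = 0.77, n = 20) and IGF-1a (r = 0.81, rho = 0.83, n = 20), a growth factor. So SCX and ERG1 shared TNC, with ERG1 at rank 1 for SCX and SCX at rank 3 for ERG1. MKX and TNMD each had the other in the fourth place of 21, though at a higher r of 0.78.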

How the data were processed

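TaqMan qRT-PCR was performed by the authors on whole CT after TRIzol extraction, DNase treatment and reverse transcription, in technical duplicates. They deposited the Ct (a measure in cycles with no normalization), ΔCt against RPLP0 (a log2 value with reversed sign) and the relative expression 2^-ΔΔCt (a ratio to C). No count or read depth applies, and the number of animals limits the precision. Some gene pairs of the panel lack animals because values were left out: of 484 values, 22 matched, within 1e-06, the average of the remaining animals in their group and 2 were blank. Groups and replicate numbers came from the sample labels. Columns from other series were not present.

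The groups were fitted in R 4.3.3 with limma 3.58.1, in 1 model with no covariates, adjusted by Benjamini-Hochberg over 132 tests, beside exact permutation tests. Correlations used 100000 permutations within groups. The planned adjustment of ratios over 60 tests and of correlations over 6 pairs was replaced in the text by that over all gene pairs. The code was tested on simulated data. The rule for named genes was to name the 4 members, the 2 targets most like each, and the genes of 2 lists that passed. Members and lists were chosen with earlier results of these data known. Alternatives were other references, filters, scales, adjustments, a replicate block and leaving out each animal.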

Additional observations from a re-analysis of the deposited data

Results flagged for a closer look

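Within groups of 4 to 6 animals, 60 sets of values were screened for 1 animal far from the rest, and 6 were found, where chance gives about 5% of sets. The RPLP0 Ct of replicate 4 of C was 30.6, while the other C animals had 26.1 to 26.9. ERG1 over COL1A1 was 1.43 in replicate 5 of 3D, while the others had 0.18 to 0.35. Replicate 4 of 28D accounted for the remaining 4. Its SCX over MKX was -1.72 (others -0.53 to 0.17), its SCX over COL1A1 -3.94 (others -0.44 to 0.82), its MKX over COL1A1 -2.22 (others -0.29 to 0.66) and its TNMD over COL1A1 2.53 (others 4.62 to 5.19). The 3 ratios to COL1A1 share 1 well of COL1A1.

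The deposited relative expression, which the comparisons did not use, differed from the value that follows from ΔCt by more than 0.1 log2 in 2 of 87 values, both in replicate 6 of 28D. It was 2.98 for ERG1, where ΔCt gives 3.84, and 22.99 for TNMD, where ΔCt gives 1.70.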

How the results depend on the processing

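Of the alternatives other than leaving out an animal, 377 values kept their direction and side of the threshold, 18 lost a call, 26 gained one, 12 moved and 23 turned. In the group differences (3 calls) MKX from 3D to 28D was the call that survived most settings. With the Ct alone 0 calls were left, at 2.84 for MKX from 3D to 14D, 1.61 for MKX and 1.15 for TNMD from 3D to 28D. SCX in 3D against C turned to -1.19, 28D minus C to -0.72 (SCX), -0.82 (MKX), -0.67 (ERG1) and -0.71 (TNMD), and 28D minus 14D to -0.97, -1.23, -0.40 and -0.71. With the other targets as reference 1 call was left, MKX from 3D to 14D was 1.01 and TNMD from 3D to 28D 0.73, and 14D minus 3D turned to -0.45 (SCX), -0.078 (ERG1) and -0.024 (TNMD). With 1 RPLP0 Ct per animal 1 call was left (MKX 1.50 to 14D and TNMD 1.53 to 28D missed it). With the other RPLP0 Ct of replicate 5 of 3D, chosen after seeing the data, there were 5 calls, with MKX in 3D against C at -1.50 and ERG1 from 3D to 28D at 2.05, and SCX in 3D against C turned to -0.26. With Ct above 35 as missing 2 calls were left, and MKX from 3D to 14D was lost at 0.95 (adjusted p = 0.128 by limma). On linear values 2 calls were left too, with the same one lost at 0.69 (adjusted p = 0.119 by limma), and SCX and ERG1 turned to -0.087 and -0.11 in that pair. Without replicate 4 of C and replicate 2 of 3D together, also chosen after seeing the data, 1 call was left, with MKX at 0.95 to 14D and TNMD at 1.12 to 28D, and SCX in 3D and 14D against C turned to -0.10 and -0.00387 and TNMD in 14D against C to 0.046. When each pair was fitted by itself, 0 calls were left (1.50, 1.99 and 1.53), and with adjusted exact p-values 0. In the deposited fold table TNMD from 14D to 28D passed at 1.64, where ΔCt gives 1.01. Of the TNMD values in it, only that of replicate 6 of 28D differed from ΔCt by more than 0.1 log2. It was 22.99, where ΔCt gives 1.70. Apart from this entry and the RPLP0 shift that defines the reference settings, the cause of these changes was not tested.

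Leaving out 1 animal gave 1 to 4 calls. MKX from 3D to 14D ranged from 0.95 to 1.79, MKX from 3D to 28D from 1.44 to 2.27 and TNMD from 3D to 28D from 1.12 to 1.76. SCX in 3D against C ranged from -0.26 to 0.43, SCX in 14D against C from -0.00387 to 0.21, SCX from 3D to 14D from -0.32 to 0.37, TNMD in 14D against C from -0.38 to 0.046 and r of SCX and MKX from -0.11 to 0.23. MKX in 3D against C passed without replicate 4 of 3D (-1.52). With the replicate number as a block the calls numbered 3 and MKX from 3D to 28D was 1.98 (adjusted p = 0.0106 from limma). Of 31 same-numbered pairs of animals, 9 had a correlation over 0.1 (range -0.86 to 0.43). These correlations over few genes cannot decide whether the numbers pair the animals.

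For the ratios, adjusted over the 60 tests, 0 passed as reported, 4 with all values of the deposited Ct table, 12 with limma on the differences and 0 to 11 when 1 animal was left out, the 11 without replicate 4 of 28D. For the correlations, 1 pair passed as reported, 4 with no subtraction of group means (SCX and TNMD turned to 0.20), 6 on the Ct alone (SCX and TNMD 0.84), and 0 relative to the other 18 targets, where MKX and TNMD had 0.073, MKX and ERG1 turned to -0.0067 and ERG1 and TNMD to -0.20. With the other RPLP0 Ct of replicate 5 of 3D SCX and MKX turned to -0.11. Leaving out 1 animal gave 0 to 1 passing pair, with r of MKX and TNMD from 0.46 to 0.76.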
